A study of Mus musculus with 8 samples.

Results

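The genes described here are the insulin-like growth factor 1 (IGF1) system of the mouse hypothalamus: the ligand gene Igf1, the receptor genes Igf1r and Igf2r, and the binding-protein genes Igfbp2 to Igfbp7. They were taken by gene symbol, and the 9 genes were found once each among the 55401 genes of the deposited table. The samples were 8 hypothalami taken on postnatal day 19, 4 from pups gavaged with PLX3397 and 4 from pups gavaged with vehicle between days 9 and 15. In both groups F1 and F2 were females and M1 and M2 males, 2 of each sex. PLX3397 inhibits CSF1R, the receptor on which microglia depend, and the series asks what microglia contribute to hypothalamic development after birth. The sample labels name the tissue only as brain, and the sources used here give neither dose nor strain. Whole tissue was sequenced, so fewer cells of a type and less RNA per cell cannot be told apart.

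IGF1 is a secreted growth factor that promotes growth and survival of neurons and maturation of oligodendrocytes. It acts through IGF1R, a receptor tyrosine kinase, while IGF2R is a sorting receptor that takes up IGF2 and carries tagged enzymes to lysosomes. The IGF-binding proteins hold the ligands outside cells and either withhold them from the receptor or deliver them to it. IGFBP7 binds IGFs only weakly and is often set apart as an IGFBP-related protein. In the young brain Igf1 is made by some neurons and by microglia, above all microglia of developing white matter, and the binding-protein genes are spread over neurons, astrocytes, vessels and meninges.

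Because the binding proteins are relatives, the stretch that codes for their shared amino-terminal signature is shown to make clear how far apart the transcripts are. The signature is glycine, cysteine, glycine, cysteine, cysteine, 2 variable residues and cysteine, and the cysteine codons are in capitals. The sequences are GENCODE vM21 transcript sequence on the coding strand, and the positions are on GRCm38 (mm10).
Igfbp2: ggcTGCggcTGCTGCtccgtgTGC
Igfbp3: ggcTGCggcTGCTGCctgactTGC
Igfbp4: ggcTGCggtTGTTGCgccactTGC
Igfbp5: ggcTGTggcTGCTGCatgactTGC
Igfbp7: TGCgggTGCTGCccggtgTGT
They lie at chr1:72824778-72824801 (plus strand) for Igfbp2, chr11:7213566-7213589 (minus) for Igfbp3, chr11:99041650-99041673 (plus) for Igfbp4, chr1:72873966-72873989 (minus) for Igfbp5 and chr5:77407826-77407846 (minus) for Igfbp7.

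In Igfbp2, Igfbp3, Igfbp4 and Igfbp5 the full signature was present, and of its 24 bases 17 to 22 were identical between any 2 of them, with Igfbp3 and Igfbp5 the closest pair. Igfbp7 kept the spacing of the 4 cysteines without the leading glycine codon, and in the coding sequence of Igfbp6 no stretch with that spacing was found. No run of 50 bases was shared between transcripts of any 2 of the 9 genes, so reads of that length could be told apart between them. Igfbp4 shared 1.72% of its 50-base runs with other genes, and Igfbp7 2.99%, all with Polr2b, an RNA polymerase subunit gene that overlaps it on the opposite strand. Over the 85 overlapping bases the reads of Igfbp7 and Polr2b cannot be separated, since strand keeping is not stated. The span of Igf2r overlaps that of the antisense gene Airn by 28354 bases. Of the 50-base runs of annotated Igf2r transcripts 0 were shared with transcripts of another gene. Unspliced RNA was not part of that comparison, so it cannot show whether reads from unspliced Airn fell on Igf2r. Airn had a mean count of 158.8 against at least 4613 for Igf2r. Igfbp2 and Igfbp5 are neighbours on chromosome 1, pointing towards each other 5457 bases apart.

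Total counts ran from 55900335 to 67487391 in the PLX3397 libraries and from 54115300 to 60001808 in the vehicle libraries. The microglial markers checked the treatment: their summed level was 41.6 to 75.9 CPM (counts scaled to library size) in PLX3397 and 401.3 to 422.3 CPM in vehicle libraries, and 15 of the 18 fell. Neuropeptide transcripts of the hypothalamus were present in every library. The vehicle F1 library stood apart, since it carried pituitary hormone transcripts. Gh was 2641 CPM there and at most 0.862 CPM in the other 7 libraries, and Prl was 172.3 CPM against at most 0.135 CPM. The pituitary markers, like the other lists, were chosen with earlier results of these data known. The effect of PLX3397 on each of the 9 genes is therefore given with and without it. Of the 9 pituitary markers 8 were at least 2-fold higher there, while Chga, which neurons also express, was 447.2 CPM against 331.4 to 428.9 CPM.

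Expression levels of the 9 genes are given as FPKM, the authors' fragment count scaled by gene length and library depth, which can be compared between genes. Igfbp5, whose protein binds to matrix and is among the most conserved of the family, had the highest level, at a mean of 35.5 ± 1.62 FPKM (SD, n = 8). Igfbp7 followed at 15.2 and Igfbp2 at 14.7 FPKM, and these did not differ beyond their spread, since Igfbp7 was the higher of them in 5 of 8 libraries. Igfbp3 at 8.38 and Igf2r at 8.00 FPKM likewise overlapped, with Igfbp3 higher in 5 of 8. Igfbp6 at 5.12, Igfbp4 at 4.00 and Igf1r at 3.59 FPKM came next, with overlapping ranges between neighbours. Igf1 was the lowest, at 0.585 ± 0.10 FPKM (SD, n = 8), 6.14-fold under Igf1r. The FPKM of Igf1 and Igf1r rest on lengths of 11.3 and 19.2 kb that the values imply, and that of Igf2r on 10.6 kb, against 1.27 to 6.85 kb for the binding-protein genes. How far the levels depend on which transcripts are in use was not tested.

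None of the 9 genes passed the test between PLX3397 and vehicle hypothalami. The test was edgeR's quasi-likelihood test over 16894 genes with sex as a covariate, and a gene was called at a Benjamini-Hochberg adjusted p under 0.05. It called 0 of the 9 genes, beside 2.14% of all tested genes (0.308% higher and 1.83% lower). At an unadjusted p under 0.05 the count was also 0 of 9, with edgeR, DESeq2 and limma, whereas 16.2% of all tested genes passed that limit with edgeR. In sign 4 of the genes were positive and 5 negative, and their median log2 fold change was −0.06, beside −0.00253 over all tested genes. In none of the 9 did the 4 PLX3397 values lie apart from the 4 vehicle values, as they did in 11.2% of all tested genes (4.85% with PLX3397 higher and 6.32% with it lower).

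**Figure D1:**
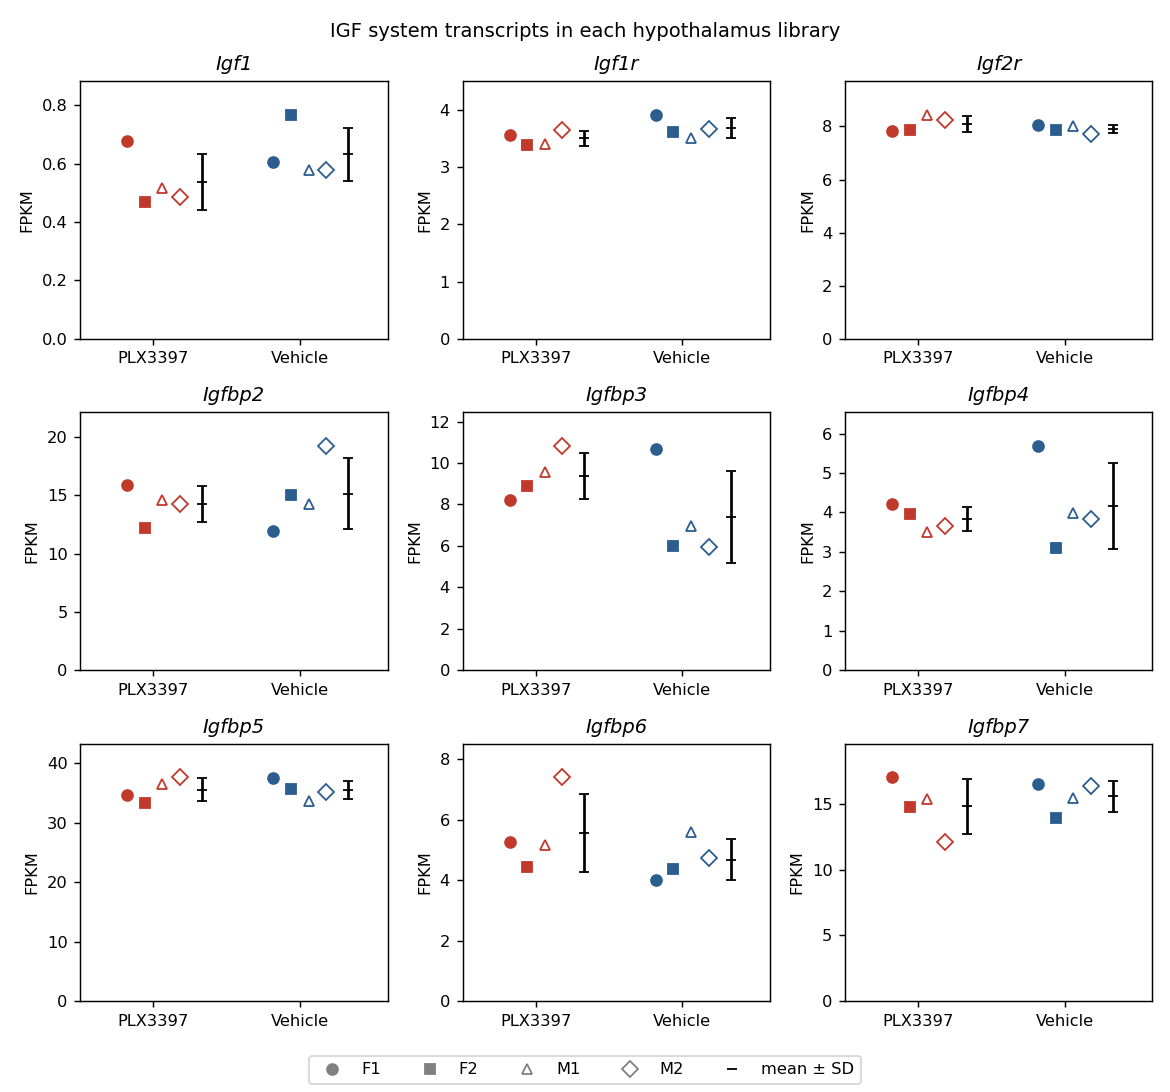
Level of each of the 9 IGF system genes in FPKM (y axes, from 0) in the 4 PLX3397 (red) and 4 vehicle (blue) libraries, with filled symbols for females, open symbols for males, and the group mean ± SD beside them in black. The groups overlap for every gene, and Igf1 lies between 0.469 and 0.768 FPKM in all libraries. Vehicle F1 is the highest vehicle library for Igf1r, Igf2r, Igfbp3, Igfbp4, Igfbp5 and Igfbp7, and the lowest for Igfbp2 and Igfbp6.

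Igf1, the ligand gene (chromosome 10, 87858265 to 87937042, mm10), was 0.678, 0.469, 0.517 and 0.486 FPKM in PLX3397 F1, F2, M1 and M2, against 0.605, 0.768, 0.578 and 0.579 FPKM in vehicle F1, F2, M1 and M2. Of the PLX3397 libraries 3 lay under every vehicle library and F1 did not, so the groups overlapped. The means were 0.537 ± 0.0955 FPKM in PLX3397 and 0.632 ± 0.0914 FPKM in vehicle libraries (SD, n = 4 each). Igf1 had a log2 fold change of −0.22 ± 0.14 (SE; edgeR adjusted p = 0.508), with a 95% interval of −0.56 to 0.11, or 0.678 to 1.08 times the vehicle level. Single libraries moved this value: it was −0.34 without PLX3397 F1 (edgeR adjusted p = 0.33), −0.12 without PLX3397 F2 (adjusted p = 0.734) and −0.14 without vehicle F2 (adjusted p = 0.722), and −0.29 without vehicle F1. Its counts were 308 to 518 per library, few beside the at least 3641 of Igf1r.

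Every microglial marker had a larger negative estimate than Igf1. The PLX3397 effect on the 18 markers ran from −6.63 to −0.65 on the log2 scale with a median of −3.91, and all 18 lay under the lower bound for Igf1. Csf1r, the receptor that PLX3397 blocks, was 0.704 ± 0.357 FPKM in PLX3397 and 12.3 ± 0.483 FPKM in vehicle libraries (SD, n = 4 each). PLX3397 M2, the library with the lowest summed microglial level, 41.6 CPM, had 0.486 FPKM of Igf1. PLX3397 F1 had the highest microglial level of its group, 75.9 CPM, and also its highest Igf1, 0.678 FPKM. PLX3397 F2 and M1, with 66.1 and 65.1 CPM, had 0.469 and 0.517 FPKM of Igf1. Whether Igf1 followed the microglial level was not tested. The difference between the Igf1 effect and those of the markers was not tested.

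**Figure D2:**
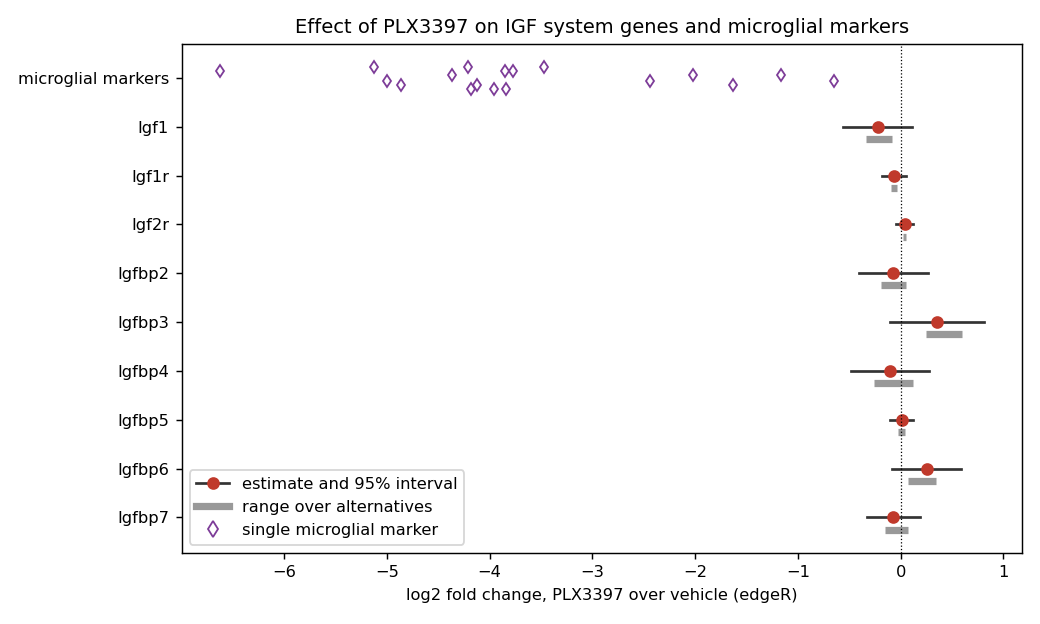
Log2 fold change of PLX3397 over vehicle (x axis) for the 9 IGF system genes, with the edgeR estimate (red point), its 95% interval (black line) and the range over the alternative analyses (grey bar), under the single values of 18 microglial markers (purple diamonds). The interval of every IGF system gene spans 0. Each microglial estimate, drawn without its interval, lies left of the interval of Igf1, at −0.65 or lower.

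The genes whose level over the 8 libraries was most like that of Igf1 were sought among the tested genes. By Pearson correlation of log2 CPM over the 8 libraries, among 13890 genes left after setting aside predicted gene symbols, they were Dis3 (r = 0.990), which encodes an RNA exosome nuclease, the myosin gene Myo10 (0.948), Ubtd1 (0.943), Zfp317 (0.930) and Eif4ebp3 (0.924), a gene of the translation repressor family under mTOR. Their adjusted p for PLX3397 ran from 0.356 to 0.575. With treatment and sex taken out of the values, Dis3 again stood first (0.996), ahead of the dynamin gene Dnm3 (0.993), Ids (0.982), Arhgap19 (0.980) and Alas1 (0.978). These are the top of many genes compared over 8 libraries that share their depth and dissection, and are given as a description.

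The receptor genes had narrow ranges, as did Igfbp5. Igf1r, which carries the signal of IGF1 (chromosome 7, 67952827 to 68233668), was 3.57, 3.39, 3.41 and 3.65 FPKM in PLX3397 F1, F2, M1 and M2, against 3.92, 3.62, 3.51 and 3.67 FPKM in vehicle F1, F2, M1 and M2. The PLX3397 values lay within or just under the vehicle range, with 2 of 4 under all vehicle libraries. For Igf1r the log2 fold change was −0.06 ± 0.05 (SE; edgeR adjusted p = 0.594), and its 95% interval reached from 0.885 to 1.04 times vehicle. Without vehicle F1, its highest library, it was −0.03 (edgeR adjusted p = 0.812).

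Igf2r, the sorting receptor (chromosome 17, 12682406 to 12769664), was 7.85, 7.87, 8.45 and 8.23 FPKM in PLX3397 F1, F2, M1 and M2, against 8.04, 7.85, 8.03 and 7.70 FPKM in vehicle F1, F2, M1 and M2. Both males were higher after PLX3397 than any vehicle library and both females were not. Igf2r had a log2 fold change of 0.04 ± 0.04 (SE; edgeR adjusted p = 0.621), with an interval of 0.972 to 1.09 times vehicle, the narrowest of the 9, and the log2 value was 0.06 without vehicle F1 (adjusted p = 0.573).

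Igfbp3 encodes the main carrier of IGFs in blood and is also made in tissue. It had the largest positive effect of the 9 and was the gene whose result turned on a single library. Igfbp3 (chromosome 11, 7206086 to 7213923) was 8.20, 8.88, 9.54 and 10.8 FPKM in PLX3397 F1, F2, M1 and M2, against 10.7, 5.99, 6.98 and 5.96 FPKM in vehicle F1, F2, M1 and M2. All 4 PLX3397 libraries exceeded vehicle F2, M1 and M2, and vehicle F1 was close to the highest of them. The means were 9.37 ± 1.12 FPKM in PLX3397 and 7.40 ± 2.23 FPKM in vehicle libraries (SD, n = 4 each), and the log2 fold change was 0.35 ± 0.20 (SE; edgeR adjusted p = 0.434), with an interval of 0.930 to 1.76 times vehicle.

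Without vehicle F1, the library with pituitary transcripts, the vehicle mean of Igfbp3 was 6.31 ± 0.581 FPKM (SD, n = 3) and the gene rose. Its log2 fold change in that fit was 0.60 ± 0.09 (SE; edgeR adjusted p = 0.0359), or 1.52 times vehicle with an interval of 1.31 to 1.76. In the same fit 1.55% of all tested genes were called, 0.219% as higher and 1.33% as lower. With PLX3397 M2 left out as well the value was 0.54 (edgeR adjusted p = 0.101), and over the other alternatives the adjusted p of Igfbp3 lay between 0.347 and 0.672. Blood-cell markers, chiefly haemoglobin genes, were highest in vehicle F2, M1 and M2, where Igfbp3 was lowest. The summed level of the 6 markers in that list was 94.9 to 205.5 CPM there. It was 28.4 to 62.4 CPM in PLX3397 libraries and 34.8 CPM in vehicle F1, where Igfbp3 was high. Within PLX3397 the order was mixed. F1 had the highest sum and the lowest Igfbp3, but M2 had 44.4 CPM with the highest Igfbp3, and F2 the lowest sum with 8.88 FPKM. Of those 6 markers 4 were tested, 0 were called with edgeR (4 at an unadjusted p under 0.05, and 0 called with DESeq2 or limma). The part of pituitary tissue or of blood in the Igfbp3 result was not tested.

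**Figure D3:**
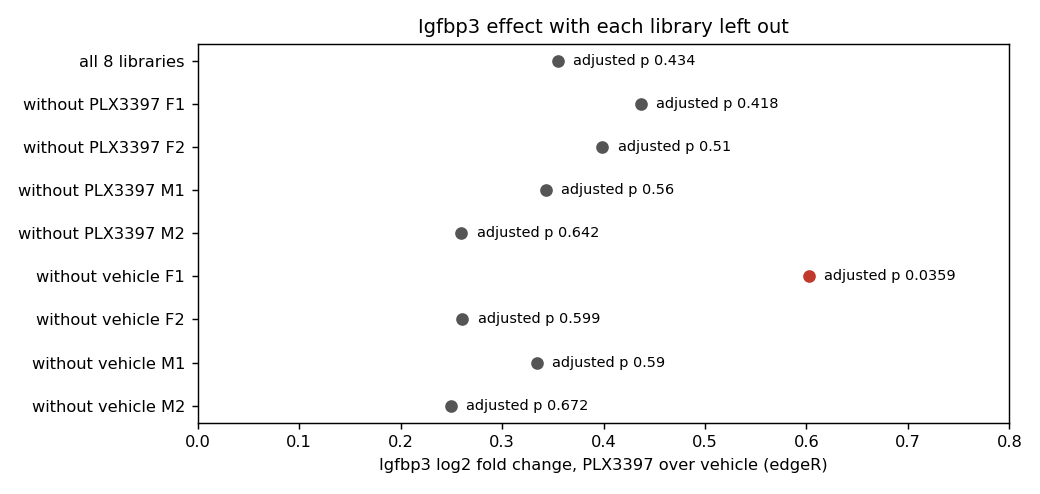
Log2 fold change of Igfbp3, PLX3397 over vehicle (x axis), in the fit with all 8 libraries (top) and with each library left out in turn, with the edgeR adjusted p beside each point and the fit under 0.05 in red. The value is 0.35 with all libraries and between 0.25 and 0.60 without one of them, and it passes only without vehicle F1.

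Igfbp4, whose protein holds back IGF action until the protease PAPP-A cuts it, had vehicle F1 as its highest library. Igfbp4 (chromosome 11, 99041244 to 99054392) was 4.22, 3.95, 3.51 and 3.66 FPKM in PLX3397 F1, F2, M1 and M2, against 5.69, 3.10, 3.99 and 3.83 FPKM in vehicle F1, F2, M1 and M2. The PLX3397 values lay inside the vehicle range. Igfbp4 had a log2 fold change of −0.11 ± 0.16 (SE; edgeR adjusted p = 0.81), and without vehicle F1 it was 0.08 (adjusted p = 0.795), so its sign depended on that library.

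Igfbp2, the binding protein typical of developing brain and of glia, showed a wide spread among vehicle libraries. Igfbp2 (chromosome 1, 72824503 to 72852474) was 15.9, 12.2, 14.6 and 14.3 FPKM in PLX3397 F1, F2, M1 and M2, against 11.9, 15.1, 14.3 and 19.2 FPKM in vehicle F1, F2, M1 and M2. All PLX3397 values fell between the lowest and the highest vehicle library. The log2 fold change was −0.07 ± 0.14 (SE; edgeR adjusted p = 0.853), with an interval of 0.753 to 1.20 times vehicle. Without vehicle F1, its lowest library, the value was −0.17 (edgeR adjusted p = 0.625), and without vehicle M2, its highest, 0.05 (adjusted p = 0.9).

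Its neighbour Igfbp5 (chromosome 1, 72857932 to 72874884) was nearly level. It was 34.7, 33.3, 36.5 and 37.7 FPKM in PLX3397 F1, F2, M1 and M2, against 37.5, 35.6, 33.7 and 35.1 FPKM in vehicle F1, F2, M1 and M2. For Igfbp5 the log2 fold change was 0.01 ± 0.05 (SE; edgeR adjusted p = 0.945), and its interval of 0.933 to 1.09 times vehicle was almost as narrow as that of Igf2r. Without vehicle F1 the log2 value was 0.04 (adjusted p = 0.732). By sex the values crossed: in PLX3397 libraries both males exceeded both females, and in vehicle libraries both females exceeded both males.

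Igfbp6, which prefers IGF2 over IGF1 and is found in fibroblasts and in some neurons, was highest in PLX3397 M2. Igfbp6 (chromosome 15, 102144362 to 102149511) was 5.25, 4.42, 5.17 and 7.40 FPKM in PLX3397 F1, F2, M1 and M2, against 4.00, 4.38, 5.58 and 4.74 FPKM in vehicle F1, F2, M1 and M2. Apart from PLX3397 M2 the groups shared a range. The log2 fold change was 0.25 ± 0.15 (SE; edgeR adjusted p = 0.451), and it was 0.13 without PLX3397 M2 (adjusted p = 0.715), 0.23 without vehicle F1 (adjusted p = 0.566) and 0.07 without both (adjusted p = 0.875). Without PLX3397 M1 it was 0.35 (unadjusted p = 0.0412, edgeR adjusted p = 0.33). The summed level of 12 markers of meningeal fibroblasts was also highest in PLX3397 M2, at 363.6 CPM. The level was 295.3 to 323.8 CPM in PLX3397 F1, F2 and M1 and 223.8 to 316.8 CPM in vehicle libraries. Of the 12, 4 rose (Slc6a20a, Slc6a13, Tbx18 and Aldh1a2), beside 0.308% of all tested genes. The other 8 were not called, and 2 of the 12 estimates were negative. The part of meningeal fibroblasts in the Igfbp6 values was not tested.

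Igfbp7, a gene of vessel walls (chromosome 5, 77349240 to 77408041), was 17.0, 14.7, 15.3 and 12.1 FPKM in PLX3397 F1, F2, M1 and M2, against 16.5, 13.9, 15.5 and 16.3 FPKM in vehicle F1, F2, M1 and M2. PLX3397 libraries held both the highest and the lowest value. Igfbp7 had a log2 fold change of −0.07 ± 0.11 (SE; edgeR adjusted p = 0.818), and −0.05 without vehicle F1 (adjusted p = 0.89). Endothelial markers summed to 340.8 to 377.6 CPM in PLX3397 and 305.3 to 366.9 CPM in vehicle libraries, and Polr2b, which shares bases with Igfbp7, was 17.15 to 18.96 FPKM in PLX3397 and 17.1 to 18.5 FPKM in vehicle libraries. Added up, Igfbp2 to Igfbp7 came to 77.4 to 85.9 FPKM in PLX3397 and 78.1 to 86.3 FPKM in vehicle libraries, of which Igfbp5 made up 40.7 to 45.6%.

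None of the 9 genes passed a test that involved sex. For the difference of the PLX3397 effect between females and males, with 2 libraries in each of 4 groups, 0 of 9 passed with edgeR or limma, beside 0.077% of all tested genes with edgeR (0.0355% higher and 0.0414% lower). Of the 9, 1 had an unadjusted p under 0.05, beside 6.01% of all tested genes. It was Igfbp5, whose effect was −0.08 in females and 0.10 in males on the log2 scale, a difference of −0.18 ± 0.07 (SE; edgeR adjusted p = 0.819). Igfbp3 had 0.06 in females and 0.65 in males (difference −0.59 ± 0.35, SE; adjusted p = 0.851). Without vehicle F1, which leaves 1 vehicle female, whose spread is taken to be like that of the other groups, the female value of Igfbp3 was 0.52 and the difference −0.13 (adjusted p = 0.935). In that fit, whose values were added after seeing the data, the difference was −0.16 for Igfbp5 (adjusted p = 0.887) and 0.53 for Igfbp4 (unadjusted p = 0.0115, edgeR adjusted p = 0.68). Between females and males with treatment as a covariate 0 of 9 passed with edgeR or limma, beside 0.0592% of all tested genes (0.0237% higher and 0.0355% lower in females). At an unadjusted p under 0.05 it was 1 of 9, beside 4.99% of all tested genes, and Igfbp6 had the largest difference, −0.34 ± 0.15 (SE; unadjusted p = 0.0497, edgeR adjusted p = 0.933), or −0.31 without vehicle F1 (unadjusted p = 0.108).

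The other genes of the pathway were taken from 6 lists with 64 genes, of which 55 were tested. Of these 3 fell and 0 rose (5.45%, beside the 2.14% of all tested genes), and their median log2 fold change was 0.02. With DESeq2 4 fell and 2 rose, beside 755 lower and 342 higher among all 16894 tested genes with that tool. The 3 genes called with edgeR were Grb14, Gab1 and Pik3r3. Markers of the oligodendrocyte lineage fell in the same libraries. In a list of precursor and other early lineage genes 8 of 10 fell, beside 1.83% of all tested genes. They were Vcan, Neu4, Gpr17, Sox10, Enpp6, Bcas1, Olig2 and Olig1, which are not all specific to precursors. Their list summed to 340.9 to 445.7 CPM in PLX3397 and 962.8 to 1367 CPM in vehicle libraries. The 2 not called were the precursor markers Pdgfra (−0.21, edgeR adjusted p = 0.182) and Cspg4 (−0.28, edgeR adjusted p = 0.209). Of 12 mature oligodendrocyte markers 4 were called as lower with edgeR, beside the same 1.83%, and all 12 estimates were negative, with a median of −1.22. These 12 summed to 2185 to 4972 CPM in PLX3397 and 6478 to 9823 CPM in vehicle libraries. Of 10 astrocyte markers 0 were called with edgeR. The part of oligodendrocyte-lineage cells in the 3 calls was not tested.

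Among 12 tested receptors and adaptors of the insulin family, Grb14 and Gab1 fell. Grb14, an adaptor that binds the insulin receptor and dampens its kinase, was 2.33, 2.03, 2.23 and 2.09 FPKM in PLX3397 F1, F2, M1 and M2, against 2.82, 2.95, 3.26 and 3.41 FPKM in vehicle F1, F2, M1 and M2 (log2 fold change −0.51 ± 0.08, SE; edgeR adjusted p = 0.0246). Gab1, a docking protein that recruits PI3K to activated receptors, was 5.17, 6.76, 7.55 and 6.15 FPKM in PLX3397 F1, F2, M1 and M2, against 9.63, 8.61, 10.7 and 10.9 FPKM in vehicle F1, F2, M1 and M2 (−0.63 ± 0.10, SE; edgeR adjusted p = 0.0247). In both genes the groups lay apart. Both stayed under 0.05 in only 2 of the 8 fits without a library: Grb14 without PLX3397 F1 or vehicle F1, and Gab1 without PLX3397 F1 or F2. Insr, the insulin receptor, which can pair with IGF1R, was 2.40 ± 0.595 FPKM in PLX3397 and 2.82 ± 0.463 FPKM in vehicle libraries (SD, n = 4 each; edgeR adjusted p = 0.618).

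Among 25 genes of the PI3K, AKT, FOXO and mTOR steps, Pik3r3 fell and 24 were not called. Pik3r3, a regulatory subunit of PI3K, was 11.2, 10.7, 12.2 and 10.0 FPKM in PLX3397 F1, F2, M1 and M2, against 15.8, 14.8, 15.9 and 16.8 FPKM in vehicle F1, F2, M1 and M2. The groups lay apart, with a log2 fold change of −0.51 ± 0.07 (SE; edgeR adjusted p = 0.0121). Leaving out single libraries kept the call in 7 of 8 fits, and it missed without PLX3397 F2 (adjusted p = 0.052).

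The remaining 4 lists held 0 calls with edgeR. The other ligand, Igf2, was the tested gene among 6 further ligands and carriers, and Igfbp1 and the insulin genes were below the filter of a mean of 0.5 FPKM. Igf2 was 30.7, 26.3, 27.4 and 43.8 FPKM in PLX3397 F1, F2, M1 and M2, against 16.5, 20.7, 26.1 and 24.0 FPKM in vehicle F1, F2, M1 and M2. Its mean over the 8 libraries, 26.9 FPKM, lay between those of Igfbp5 and Igfbp7, though single libraries did not all keep that order. Its groups lay just apart, with 26.3 FPKM in the lowest PLX3397 and 26.1 FPKM in the highest vehicle library. The summed meningeal fibroblast markers were lowest in vehicle F1, 223.8 CPM, where Igf2 was lowest, and highest in PLX3397 M2, 363.6 CPM, where Igf2 was highest, and their part in its level was not tested. The log2 fold change was 0.57 ± 0.15 (SE; edgeR adjusted p = 0.13), and DESeq2 called it (adjusted p = 0.00549) while limma did not. It was 0.49 without vehicle F1 (edgeR adjusted p = 0.231) and 0.43 without PLX3397 M2 (adjusted p = 0.267). With both left out it was 0.30 (edgeR adjusted p = 0.373), and without PLX3397 M1 it passed (0.71, adjusted p = 0.0444).

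Of 4 tested proteases of binding proteins and their inhibitors 0 were called with edgeR, DESeq2 or limma (1 at an unadjusted p under 0.05 with each). That gene was Stc1, stanniocalcin, an inhibitor of PAPP-A, with 1.87 ± 0.139 FPKM in PLX3397 and 1.43 ± 0.193 FPKM in vehicle libraries (SD, n = 4 each; log2 fold change 0.39 ± 0.12, SE; edgeR adjusted p = 0.184). Of 4 genes of mannose 6-phosphate tagging, which makes the ligands that IGF2R sorts, 0 were called with any of the 3 tools (1 at an unadjusted p under 0.05 with each), and Nagpa, the uncovering enzyme of that pathway, was nearest (−0.50 ± 0.18, SE; edgeR adjusted p = 0.223). Of 9 tested genes of growth hormone signalling 0 were called with edgeR (1 at an unadjusted p under 0.05) and 1 with DESeq2 and with limma. It was Ghrh, the growth hormone releasing hormone gene of arcuate neurons, at 22.4 ± 1.72 FPKM in PLX3397 and 17.8 ± 0.487 FPKM in vehicle libraries (SD, n = 4 each; 0.34 ± 0.07, SE; edgeR adjusted p = 0.0757). Its PLX3397 values, 20.4 to 24.5 FPKM, lay above its vehicle values, 17.2 to 18.3 FPKM.

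**Figure D4:**
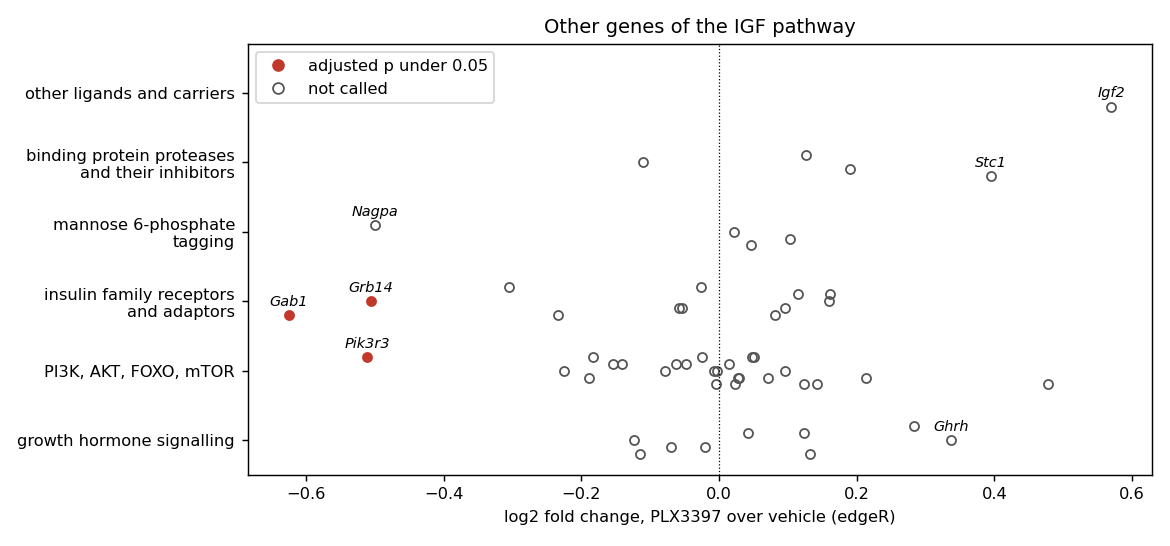
Log2 fold change of PLX3397 over vehicle (x axis, edgeR) for the 55 tested genes of 6 IGF pathway lists (rows), with genes at an adjusted p under 0.05 in red and the others open. The 3 red genes, Gab1, Grb14 and Pik3r3, lie between −0.63 and −0.51, and Igf2, not called, lies farthest to the right at 0.57.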

How the data were processed

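RNA was ribosome-depleted and random-primed, per the labels' protocols. Per the file headers, the deposited table holds counts per gene (whole numbers) and the authors' FPKM. Tools listed without roles in the submitters' processing notes are HISAT2, StringTie, bcl2fastq 2.0, limma and DESeq2, with build mm10. The counter and strand setting were not given in the sources used here. Coordinates of the 9 genes equal those of GENCODE vM21.

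The deposited counts were tested with edgeR 4.0.16 in R 4.3.3 (quasi-likelihood, TMM scaling, default dispersion step, two-sided, Benjamini-Hochberg over the 16894 genes averaging 0.5 FPKM or more; 38507 genes were not tested). Standard errors are the absolute log2 fold change over the square root of F. The 95% intervals use the test's degrees of freedom. CPM is TMM-scaled. DESeq2 1.42.0 and limma 3.58.1, on log2(FPKM + 0.5), were alternatives, with other filters, scalings, pseudocounts and covariates and with libraries left out. A count of 0 allows up to 3 counts (0.0445 to 0.0554 CPM), for counting error only. No batch is labelled. The series text counts 8 hypothalami, and whether litters were shared is not stated. The tests treat the 8 as independent, which pups of a shared litter would not be. A litter difference between the groups could not be told apart from the treatment.

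Members and lists were chosen with earlier results of these data known. All 9 members are named. Each pathway list adds its called genes or the gene with the smallest p, and likeness to Igf1 adds the 5 highest correlations. Insr, Polr2b, Airn, Chga and the other single markers were chosen after their values were seen.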

Additional observations from a re-analysis of the deposited data

Results flagged for a closer look

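The level of Igf1 in vehicle F2 stood far from the other vehicle libraries, at 8.71 CPM against 6.54 to 6.75 CPM in vehicle F1, M1 and M2. Its gap to the nearest library was above Dixon's 95% critical value for 4 values, a limit that chance passes in about 1 of 20 groups. It was the single flag among the 9 genes in both groups.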

How the results depend on the processing

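Over 21 alternatives, 0 to 1 of the 9 genes were called, the 1 being Igfbp3 without vehicle F1. Of 188 recomputed fold changes of the 9 genes 179 kept their sign and stayed uncalled and 8 turned sign. Leaving out single libraries gave log2 fold changes of −0.337 to −0.122 for Igf1, −0.189 to 0.0511 for Igfbp2, −0.258 to 0.0837 for Igfbp4, −0.0205 to 0.0422 for Igfbp5 and −0.147 to 0.0253 for Igfbp7. Without vehicle F1 and PLX3397 M2 together Igfbp4 had 0.12 and Igfbp7 0.0703, and with library totals alone Igfbp5 had −0.0001. The count over all genes, 362, was 1097 with DESeq2, 123 without those 2 libraries and 138 to 361 without one. The count of 3 pathway calls, which was added to the alternatives after seeing the data, became 6 with DESeq2, 1 without those 2 libraries and 1 to 3 without one. With the replicate label as a block, 79 of all genes and 0 of the pathway genes were called. Same-labelled libraries deviated together with correlations of 0.03 to 0.101. PLX3397 F1, F2 and M2 each correlated best with the vehicle library of their own label, and PLX3397 M1 did not. The labels were not taken to pair animals, but these values cannot settle whether they do. The cause of the shared deviation was not tested. Igf1 was below a filter of a mean of 1 FPKM and has no value there. No call changed for sex or its difference in treatment effect.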
